A study of Drosophila melanogaster with 24 samples.

Results

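Open chromatin of wing discs in which every histone H3.3 carried arginine in place of lysine 9 was compared with that of wild-type discs. The comparison covers all 19738 regions of the authors' deposited table for the double mutant H3.3-K9R over WT, which are also all the regions the wing disc tables of the series hold. The signal was measured by FAIRE (formaldehyde-assisted isolation of regulatory elements), in which DNA not crosslinked to nucleosomes stays in the aqueous phase of a phenol extraction and is sequenced. WT discs came from yw larvae. Double mutant discs came from larvae with a null mutation of H3.3A and an endogenous K9R mutation of H3.3B, and no change to the canonical histone genes is given in the labels of either group. Wing imaginal discs were taken from both genotypes at the wandering stage of the third instar, and 3 libraries of each were made with the Rubicon ThruPLEX kit. The labels give neither the sex of the larvae, nor the number of animals per library, nor whether the mutants share the genetic background of yw. Genotype and background therefore cannot be told apart. Nothing says that the 3 libraries of a group came from separate dissections, so the p-values measure the spread between these libraries, which may be technical.

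The series tests whether lysine 9 of the variant H3.3 and of canonical H3 can replace each other. Alongside these discs it holds FAIRE of H3.3A null and H3.3B-K9R discs and RNA of whole larvae of the first instar, for 24 libraries in all.

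H3.3 is the replacement form of histone H3. In Drosophila the genes His3.3A and His3.3B encode the same protein, which is deposited outside of DNA replication, mostly at transcribed and regulatory DNA. Methylated lysine 9 is the binding site of Heterochromatin Protein 1 and marks pericentromeric repeats, telomere-associated repeats and chromosome 4. Arginine keeps the positive charge and cannot receive this methylation or the acetylation found at active promoters.

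The table holds no value of a single library, so neither the spread within a group nor the depth of a library is known. Each region has a mean normalized count over all 12 FAIRE libraries, a log2 fold change and the authors' standard error, given below after ±. A region is called when the adjusted p-value of the authors' DESeq2 Wald test, with Benjamini-Hochberg adjustment over all regions, is under 0.05. No separate measure of DNA amount was used, so in every result below a change in openness and a change in the number of DNA copies cannot be told apart.

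Most regions had nearly the same signal in both genotypes. Of 19733 regions with a p-value in the authors' deposited table, 1562 were called (7.92%), of which 929 were higher in the double mutant (4.71%) and 633 lower (3.21%). The median log2 fold change over all regions was 0.00, and the lower and upper quartiles were -0.13 and 0.12. Called higher regions had a median log2 fold change of 0.85, and 321 of them reached a log2 fold change of 1. Called lower regions had a median of -0.66, and 126 of them reached -1. Changes above 2 in size on the log2 scale were found in 69 higher and 16 lower regions. At a median length of 343 bp for higher and 286 bp for lower regions, called regions were about as long as all regions (312 bp).

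**Figure D1:**
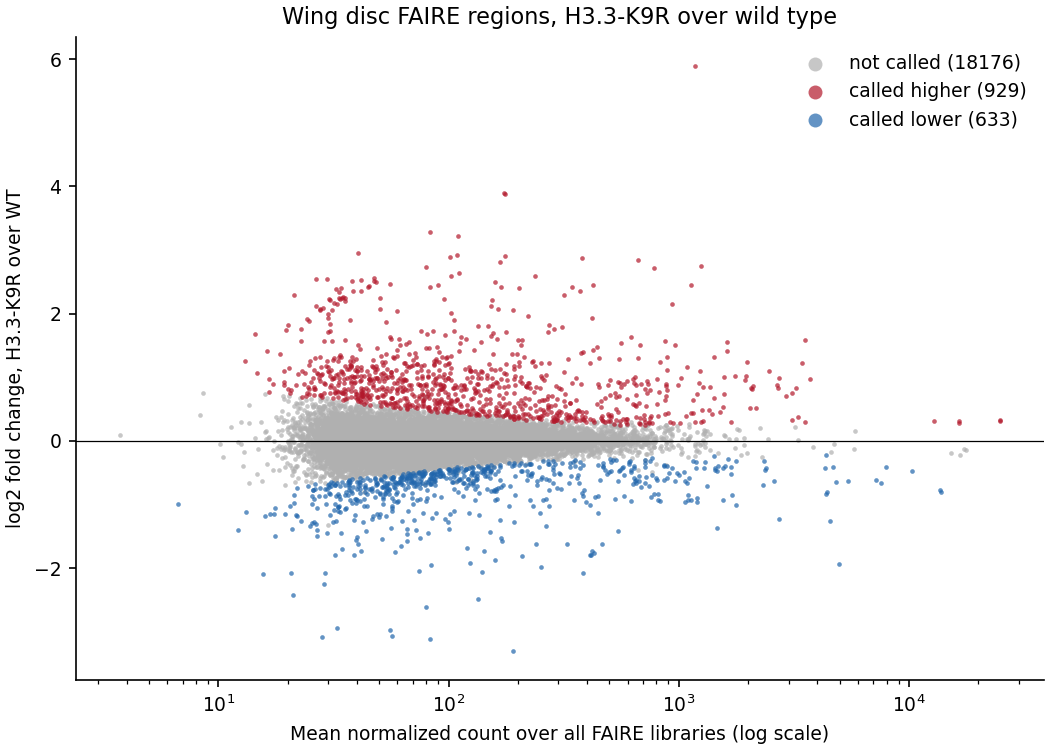
Each point is a FAIRE region, plotted by its mean normalized count over all 12 FAIRE libraries (x, log scale) and its log2 fold change in H3.3-K9R over WT (y). The 929 regions called higher and 633 called lower lie around a body of uncalled regions centred on 0, and the smallest change that was called narrows from left to right.

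What could be called depended on the count behind a region. In the authors' deposited table the median standard error fell from 0.23 in the 786 regions with a mean count under 30 to 0.09 in the 581 regions with a mean count of at least 500. The smallest called change fell with it, from 0.67 to 0.23 on the log2 scale. In the largest class, the 6947 regions with a mean count from 50 to 100, no change under 0.44 was called. The share of regions called was 5.71% in that class, 14.8% below a mean count of 30 and 42.3% at a mean count of 500 or more. These values are the smallest called change of each class, and regions with a larger standard error needed a larger change to be called.

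Called regions were unevenly spread over the genome, which was divided by position on build dm6 of the Drosophila genome. The 4 large autosomal arms held few of them. The share called was 4.31% on 2L (51 higher, 75 lower), 2.81% on 2R (39 and 51), 3.45% on 3L (55 and 62) and 2.71% on 3R (56 and 48), all below the 7.92% of all regions. The X arm had 13.5% called, with 357 regions higher and 105 lower. Up to 21 Mb the share on the X was 6.32% (100 higher, 87 lower), and between 21 and 23 Mb it was 60.7% (257 higher, 18 lower). That split of the X was chosen after the values were seen.

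Sequence known for lysine 9 methylation had higher shares in both directions. Pericentromeric sequence had 104 regions higher and 65 lower of 1362 tested (12.4%). Scaffolds, either unplaced or assigned to the X or Y without a position, had 251 higher and 199 lower of 1402 (32.1%). Their regions had a median mean count of 164, against 85.9 over all regions, and its part in their share was not tested. Chromosome 4 differed in direction, with 1 region higher and 26 lower of 100. The Y had 15 higher and 2 lower of 85, and its lowest region, in CG40635, had -2.98 ± 0.22. None of the 8 regions of the mitochondrial genome was called. The median log2 fold change was near 0 in each of the 5 arms (-0.01 to 0.00), 0.02 in pericentromeres, 0.11 on scaffolds, 0.21 on the Y and -0.20 on chromosome 4. The labels do not give the sex of the larvae, and its part in the values of the Y was not tested.

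**Figure D2:**
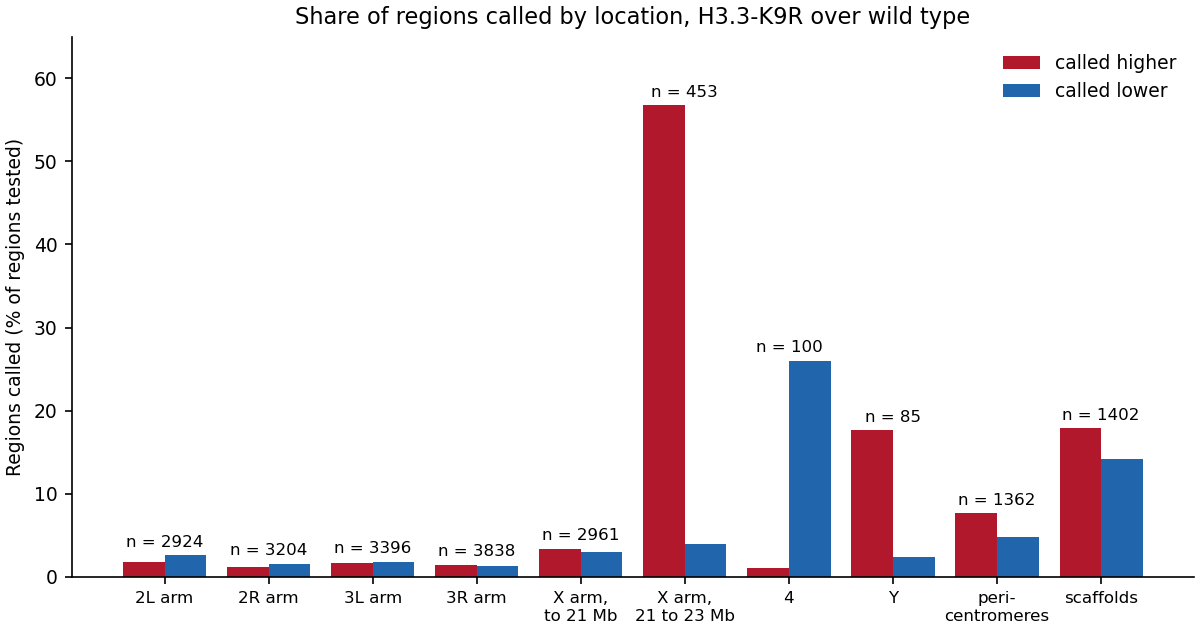
Bars give the percentage of tested FAIRE regions called higher (red) or lower (blue) in H3.3-K9R over WT for each location, with the number of regions tested above them. Higher calls stand out between 21 and 23 Mb of the X (56.7%), lower calls on chromosome 4 (26%), and the autosomal arms stay under 3% in either direction.

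The targeted genes were read first as a check of the genotype. His3.3A lies on 2L, and the region over its start (2L 5055001 to 5055291, also overlapping CG14036) had a mean count of 62.1. Its log2 fold change was -1.66 ± 0.20, or 0.317 of the WT signal, in the authors' deposited table (adjusted p = 2.1e-15, authors' DESeq2 Wald test). The other 5 regions of a 16.9-kb stretch around it, from 5043036 to 5059898, were also all called lower, at -0.95, -0.62, -0.74, -0.77 and -0.76. The first pair lies at CG31650 and the others at CG9121, eIF3h (a subunit of translation initiation factor 3) and Rpn11 (the deubiquitinase of the proteasome lid). Their median was 0.590 of the WT signal.

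Outside of this stretch the signal returned to that of WT. None of the 15 regions on one side, up to 100 kb away (median log2 fold change -0.09), and none of the 15 on the other side (-0.04) was called. In H3.3A null over WT, where 8.80% of all regions were called, the authors' deposited table calls all 6 regions of the stretch lower (median -0.93). In H3.3B-K9R over WT, where 6.53% were called, it calls none of them (median 0.03). These comparisons share the WT libraries. The stretch is thus low in both genotypes that carry the H3.3A null allele and not in the one that keeps H3.3A. The extent of the null allele is not given in the labels.

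His3.3B, on the X, showed no such change. Its 4 regions had log2 fold changes of 0.00, 0.05, 0.09 and -0.14 (authors' deposited table), each within its standard error of 0, and none was called. None of the 19 regions within 50 kb of it was called, and their median was -0.04. Between 0.1 and 1 Mb from His3.3B 12 of 198 regions were called (6.06%). More than 3 Mb away, on the X up to 21 Mb, it was 150 of 2152 (6.97%). Both are near the 6.32% of the whole X arm up to 21 Mb, and 19 regions are too few to be told apart from that share.

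**Figure D3:**
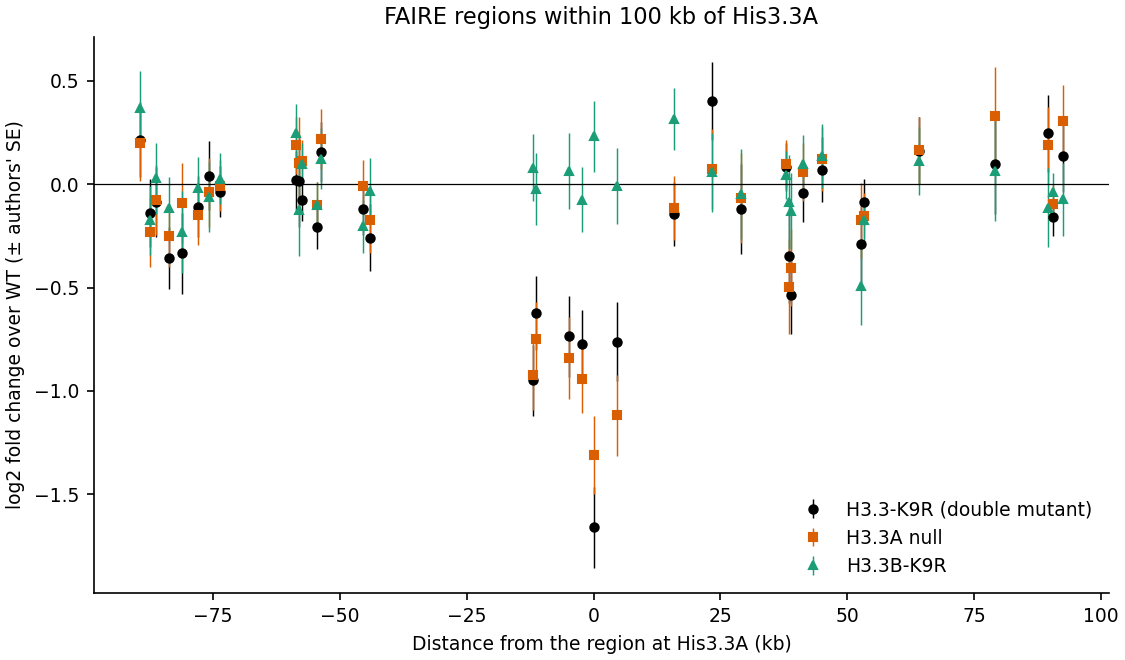
The log2 fold change over WT (y, ± the authors' standard error) of the regions within 100 kb of the region at His3.3A, plotted by distance from it (x, kb), in H3.3-K9R (black circles), H3.3A null (orange squares) and H3.3B-K9R (green triangles). A stretch of 6 regions lies between -1.66 and -0.62 in the double mutant and near 0 in H3.3B-K9R.

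The largest group of neighbouring changes lay at the base of the X arm. Between 21.7 and 22.4 Mb, 243 of 307 regions were called higher and 3 lower, with a median log2 fold change of 0.88 and quartiles of 0.61 and 1.09. This block held 68.1% of all higher calls of the X arm. Its edges were chosen after the values were seen, as the outer limits of the 100-kb bins with at least 10 regions and over 50% called higher, so its share is a description and no test.

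Every 100-kb bin in the block had a median from 0.75 to 0.99. The distal edge was gradual, since in the bin before the block 6 of 18 regions were already higher, with a median of 0.19 and an upper quartile of 0.93. In the bin after the block 3 of 21 regions were higher, and the median was -0.06. On the wider flanks there were 9 higher and 13 lower among all 89 regions from 21 Mb to the block and 5 higher and 2 lower among 57 regions from the block to 23 Mb. As the edges were set by the share called higher, these counts partly restate that choice. Beyond 23 Mb, in the pericentromeric X, 4 of 187 regions were higher and 14 lower. The densest bin, from 22 to 22.1 Mb, had 99 of its 108 regions called higher. Few genes are annotated there, and 49 of the 307 regions of the block lay within the span of a gene.

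**Figure D4:**
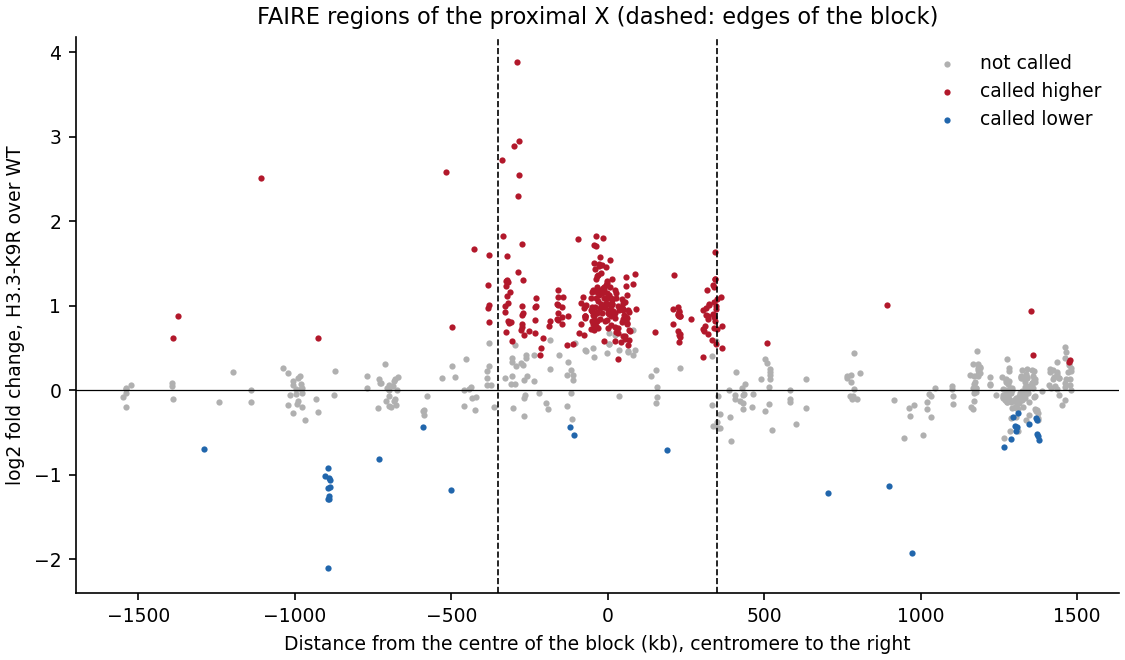
The log2 fold change in H3.3-K9R over WT (y) of each region of the proximal X, plotted by distance from the centre of the block (x, kb, centromere to the right). Between the dashed edges of the block 243 of 307 regions were called higher (red), most of them near a log2 fold change of 1, and outside of it most regions were not called (grey).

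The distal edge of the block lies within flamenco (lncRNA:flam, X 21631891 to 21790731), a locus whose long transcript is cut into piRNAs that silence gypsy-family retrotransposons in the somatic cells of the ovary. Of 110 regions for which flamenco was the overlapping or nearest gene, 66 were higher and 2 lower, and their median log2 fold change was 0.70. Many of the 110 lie outside of the gene, up to 174295 bp from it, so these counts are not those of flamenco alone. Of the 110 regions, 12 lay before the block, with 5 higher and a median of 0.42. The other 98 lay in it, with 61 higher, 2 lower and a median of 0.73. The largest was 3.88 ± 0.19 at 21759798 to 21760882 (14.8-fold, adjusted p = 1.7e-89 in the authors' deposited table, DESeq2 Wald test), followed by 2.95 at 21765210 to 21765458 and 2.89 at 21751080 to 21751746. Another region, 2990 bp long at 21711449 to 21714438, had 2.72 ± 0.11 with the smallest p of the locus (adjusted p = 1.6e-135). These 4 regions did not share a pattern over the mutants. The region with the largest change had 3.04 in H3.3A null and 3.95 in H3.3B-K9R, whereas the region with the smallest p had 4.17 in H3.3A null and 0.26 in H3.3B-K9R. The authors' handling of reads that map to several places is not given in the sources used here, and this locus consists largely of transposon fragments.

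The block was less high in H3.3A null discs. The median log2 fold change of its regions over WT was 0.88 in the double mutant, 0.76 in H3.3B-K9R and 0.31 in H3.3A null, all against the same WT libraries. The authors' deposited table of the double mutant over H3.3A null tests that difference directly and calls 6.50% of all regions. In it 166 of the 307 regions were called, and the median was 0.51. As the edges of the block were set by calls of the double mutant, these values partly restate that choice. In H3.3A null over WT, medians of the 100-kb bins were 0.24 to 0.54 from 21.7 to 22.2 Mb. They were -0.18 and -0.04 in the bins from 22.2 to 22.4 Mb.

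Many calls came in stretches of neighbours. Runs of at least 3 neighbouring regions called in one direction, with gaps of at most 50 kb, numbered 98 (68 higher, 30 lower) and held 582 regions, or 37.3% of all called regions. Without the block there were 78 runs (48 higher, 30 lower) with 356 of 1316 called regions (27.1%). The X arm had 36 runs with 325 regions, 70.3% of its calls, and without the block 16 runs with 99 of 216 calls (45.8%). The other arms had 21 runs with 92 regions (21.1%), and pericentromeres had 12 runs with 46 regions (27.2%). The 4 runs with most regions were in the block, led by 50 higher regions from 22005836 to 22049128 with a median of 1.16. The next held 15 lower regions near the end of the X, from 79734 to 92391, with a median of -1.56.

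Away from the block, 15 of the 48 runs of higher regions overlapped a gene. The others did not, or lie on scaffolds, where no genes were assigned. The runs named next were chosen after their values were seen. Across CG32547, Hayan and psh (X 18475627 to 18487012) all 14 regions were called higher, with log2 fold changes from 0.62 to 1.18 and a median of 0.88. Hayan and persephone are neighbouring serine proteases that activate the Toll pathway in the haemolymph. The run at rg and CG15465 held 8 regions with a median of 1.11 (rugose is a neuronal A-kinase anchoring protein), that at l(1)G0289 8 regions with 1.09, and that at Sox100B on 3R (a SoxE transcription factor) 8 regions with 1.20. At stol on 2L, which encodes an accessory subunit of a calcium channel, 5 regions spread over 69.6 kb all lay between 2.08 and 2.43. Their median over the same WT libraries was 2.24 in H3.3A null and 2.57 in H3.3B-K9R. The runs at rg, l(1)G0289 and Sox100B had medians of 1.10, 1.01 and 1.12 in H3.3A null. In H3.3B-K9R these were 0.50, 0.61 and 0.43. Lower runs were fewer. At Muc30E, a mucin gene on 2L, 6 regions had a median of -1.02, and at CR45499 on the X (21147337 to 21163461) 10 regions had a median of -1.15. The Muc30E run had -1.09 in H3.3A null and -1.05 in H3.3B-K9R. The CR45499 run had -0.83 in H3.3A null and -1.18 in H3.3B-K9R.

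The outermost parts of several chromosomes held many calls in both directions. These parts were taken as 120 kb from the outermost region, a distance chosen after the values were seen. There the X had 19 higher and 20 lower of 61 regions (63.9% called), 2R had 8 and 6 of 24 (58.3%), and 3L had 7 and 5 of 23 (52.2%). Over all regions 7.92% were called. The ends of 2L and 3R differed from these, with 1 higher and 1 lower of 31 regions (6.45%) and 2 higher of 20 (10%). The end of chromosome 4, given below, went mostly 1 way, with 1 higher and 18 lower of 28 (67.9%). On the X end, higher and lower stretches followed each other. From 187 to 5491, next to a Stellate gene, 6 regions had a median of 1.47, from 71936 to 79201 7 regions had a median of 1.60, and then came the 15 lower regions given above. On 2R, 5 higher regions beyond CG9380 (25268594 to 25276966) had a median of 1.31 and reached 3.21 ± 0.22 (9.28-fold, adjusted p = 5.3e-46 in the authors' deposited table, DESeq2 Wald test). The region at 25258138 to 25263011, 4874 bp long, was lower at -1.23 ± 0.06 (adjusted p = 3.1e-97). On 3L, 5 higher regions from 19220 to 42000, one of them over mthl8, had a median of 2.05 and reached 3.28 ± 0.22.

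Chromosome 4, the small chromosome that is coated by Heterochromatin Protein 1 along its gene-bearing arm, had lower signal. Its 27 calls fell into a gene-bearing part with few and an outer part with many. Among the 72 regions up to 1146623, 8 were called lower and none higher, and the median log2 fold change was -0.15. Among the 28 regions of the last 120 kb, 18 were lower and 1 higher, with a median of -0.96. Of these 28 regions all but those within Dyrk3 and Cadps lie beyond Cadps, the last gene of the chromosome in the gene table, and they hold a pair of runs of 7 lower regions each, with medians of -1.79 (1288814 to 1296220) and -1.46 (1307957 to 1313900).

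Of 33 genes of chromosome 4 in a list, 18 had 1 or more regions. Their 47 regions gave 6 lower calls (12.8%, against 3.21% lower of all regions and 26% lower of all regions of chromosome 4) and 0 higher. Their median was -0.15, against 0.00 over all regions. The largest was at Rad23, a receptor for ubiquitinated proteins that also takes part in nucleotide excision repair, with -1.05 ± 0.19 (adjusted p = 5.6e-07, authors' deposited table, DESeq2 Wald test). Sox102F, which encodes a SoxD transcription factor, had 3 lower regions at -0.89, -0.49 and -0.39. A region in eyeless (ey), the Pax6 gene of eye development, had -0.64, and one in pangolin (pan), the TCF factor of Wingless signalling, had -0.52. These genes showed falls of less than a log2 unit apart from Rad23.

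Pericentromeric sequence differed between arms. The share called was 26% on 2L (11 higher, 15 lower of 100), 18.3% on 2R (49 and 22 of 387), 10.9% on 3L (26 and 10 of 330), 9.63% on the X (4 and 14 of 187) and 5.03% on 3R (14 and 4 of 358). The largest single change was 2.88 ± 0.12 on 2L (23331959 to 23332950, 7767 bp from CR42530), 7.34-fold higher with an adjusted p of 6e-114 in the authors' deposited table by the DESeq2 Wald test. On 3L, 7 regions from 27225080 to 27231941, 35314 bp or more from the nearest gene RpL15, were higher with a median of 1.21. On 2L, 6 regions from 22259585 to 22282725 were higher with a median of 0.68.

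A list of 35 protein-coding genes in or next to pericentromeric heterochromatin had 27 genes with regions. Of their 271 regions 23 were higher and 16 lower (14.4%), with a median of 0.03. Of these regions, 246 lay in pericentromeres as bounded here, with 20 higher and 13 lower (13.4%, against 12.4% of all pericentromeric regions). The other 25, among them those near Pld on the 2R arm, had 3 higher and 3 lower. Of these 39 called regions, 8 overlapped a listed gene, and the others lay outside of it. The region in lovit, a transporter of histamine in photoreceptor synapses, was the strongest, at 2.15 ± 0.10 (4.44-fold, adjusted p = 1.4e-106, authors' deposited table, DESeq2 Wald test). It was 3.36 in H3.3A null and 0.43 in H3.3B-K9R over the same WT libraries. AGO3, the Argonaute protein that amplifies piRNAs in the germ line, also lies there and had a region at 1.24 ± 0.12 (adjusted p = 5.4e-24).

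On scaffolds, which hold repeats without a position on a chromosome, the calls of one scaffold rarely went both ways. Of 647 scaffolds with regions, 155 had higher calls only, 111 lower calls only, 10 both and 371 none. Most scaffolds have few regions, so that 1 call often decides. The scaffold with most regions, Un_CP007120v1, had 28 of 38 regions lower and 1 higher, with a median log2 fold change of -0.43 and a median mean count of 1447. Scaffolds assigned to the X had 170 higher and 97 lower of 794 regions, and unassigned ones 65 and 99 of 571. Scaffolds assigned to the Y had 16 higher and 3 lower of 37. The lowest value of the whole table, -3.30 ± 0.14 (0.101 of WT, adjusted p = 1.5e-125 by the authors' DESeq2 Wald test), was on the scaffold Un_DS484309v1.

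The highest single region of the table lay in nAChRalpha3, which encodes a subunit of nicotinic acetylcholine receptors, on the X arm. At 8294268 to 8296239, 1972 bp long and with a mean count of 1176, it had a log2 fold change of 5.89 ± 0.17, or 59.4-fold over WT (adjusted p = 8.1e-259, authors' deposited table, DESeq2 Wald test). Its neighbours at 8293893 to 8294171 and 8293632 to 8293774 had 3.90 and 2.35. The remaining region of the gene, at 8367018 to 8367415, had -0.16 ± 0.16 and was not called. The same 1972-bp region had 5.97 in H3.3A null and 6.33 in H3.3B-K9R over the same WT libraries, and the direct test of the double mutant over H3.3A null did not call it (-0.07 ± 0.08, adjusted p = 0.977). All 3 mutant genotypes were high there relative to WT.

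Other single regions on the arms showed changes of several fold. In Cyp6a17, a cytochrome P450 gene, a region on 2R (14873760 to 14874320) had 2.93 ± 0.19 (7.62-fold), with 2.91 in H3.3A null and 2.74 in H3.3B-K9R. Lower single regions were found in lncRNA:CR45232 on 2R (-2.48 ± 0.25), in Chpf on the X, which encodes a chondroitin polymerising factor (-2.08 ± 0.27), and in Pka-R1 on 3L, the regulatory subunit of protein kinase A (-1.62 ± 0.10, adjusted p = 1e-52, authors' DESeq2 Wald test). In H3.3A null these 3 regions had -2.50, -2.18 and -1.40, and in H3.3B-K9R -1.92, -1.44 and -1.54. A region 5661 bp from Caf1-180, the large subunit of the complex that deposits canonical H3 at replication, had -2.94 ± 0.24 (0.130 of WT, adjusted p = 3.3e-32). It had -1.33 in H3.3A null and -2.85 in H3.3B-K9R. Each of these 3 genotypes is set against the same WT libraries.

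Whether the discs match their labelled tissue cannot be read from these tables, since a region goes to its nearest gene at any distance and the regions are common to all genotypes. All 12 genes of a list of wing disc epithelium markers, among them vg, sd, nub and ap, had regions, while 5 of 8 muscle progenitor markers, 3 of 6 tracheal markers and 2 of 6 blood cell markers had one. None of the 70 regions of the epithelium markers was called, and their median log2 fold change was 0.03. Tracheal markers had 0 calls among 22 regions, and blood cell markers had 0 among 4. The share called on the arms, with the X taken up to 21 Mb, was 2.71% to 6.32%, and whether the marker lists differ from it was not tested. Of the 31 regions of muscle progenitor markers 1 was lower, in twist (twi), the mesodermal bHLH factor, at -0.55 ± 0.17 (adjusted p = 0.0218, authors' deposited table, DESeq2 Wald test).

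Few of the regions assigned to wing patterning genes were called. Of 241 regions assigned to 34 selector and patterning transcription factors, of which 174 overlapped the gene, 1 was called (0.41%). It lay 3458 bp from homothorax (hth), which specifies the proximal wing and notum, at 0.55 ± 0.18. Of 334 regions assigned to 38 genes of morphogen and signalling pathways, 3 were higher and 3 lower (1.80%), against 7.92% of all regions and 2.71% to 4.31% on the large autosomal arms. The largest was a region 12487 bp from vein (vn), an EGF receptor ligand, at 1.19 ± 0.18 (adjusted p = 6.5e-10, authors' DESeq2 Wald test). It had 1.14 in H3.3A null and 1.00 in H3.3B-K9R over the same WT libraries. A 2016-bp region in arrow (arr), the co-receptor for Wingless, had 0.56 ± 0.08 (adjusted p = 1.3e-09, authors' DESeq2 Wald test). Whether these lists differ from the shares of the arms was not tested.

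The other calls in signalling genes were small and went both ways. The glypican gene dally had a region at -0.59 and another at 0.58. The Wingless receptor gene fz2 had -0.59, 301 bp from the gene, and Egfr had -0.48. None of 87 regions of Hox genes and other Polycomb targets was called. Among proneural and sense organ genes 1 of 30 regions was called, in neuralized (neur), which codes for the ubiquitin ligase of Delta, at 0.36. Among cuticle and adhesion genes it was 1 of 117, in the polarity gene scribble (scrib), at 0.33. Cell cycle and replication genes had 0 calls among 63 regions, and heat shock genes 0 among 29. On the arms, with the X taken up to 21 Mb, 2.71% to 6.32% of regions were called. Whether these lists differ from that share was not tested.

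Ecdysone response genes had 3 calls among 202 regions (1.49%), and 1 was large. The share called was 7.92% over all regions and 2.71% to 6.32% on the arms, with the X taken up to 21 Mb. In Eip75B, an ecdysone-induced nuclear receptor, a region at 3L 18054090 to 18054410 had -1.57 ± 0.17 (0.337 of WT, adjusted p = 7.9e-18, authors' deposited table, DESeq2 Wald test), while another region of the same gene had 0.52 ± 0.16. The region with -1.57 had -1.72 in H3.3A null and -1.45 in H3.3B-K9R over the same WT libraries. The other had 1.15 in H3.3A null and 0.12 in H3.3B-K9R. ImpL2, a secreted antagonist of insulin, had 0.50 ± 0.13. Regeneration and stress genes had 1 call among 55 regions (1.82%), near the JAK/STAT ligand gene upd2, at -0.66.

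The lists of lysine 9 methylation, H3.3, piRNA and immune genes are short, and a few calls set their shares. These are to be read against 7.92% of all regions and 2.71% to 6.32% on the arms, with the X taken up to 21 Mb. Of 23 regions of methyltransferases, Heterochromatin Protein 1 proteins and their partners, 1 was higher (4.35%), in windei (wde), the cofactor of the methyltransferase Eggless, at 0.40 ± 0.14 (adjusted p = 0.047). Of 14 regions of H3.3 genes and deposition factors 2 were called (14.3%), both given above, at His3.3A and near Caf1-180. Of 28 regions of piRNA and germline genes 2 were higher (7.14%), in AGO3 and in qin (0.38). Of 37 regions of immune genes, 3 were higher, in Socs36E (0.52), the peptidoglycan receptor gene PGRP-LC (0.67) and Toll (Tl, 0.47), and 1 was lower, in the NF-kB factor gene Dif (-0.67), for a share of 10.8%.

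Synaptic and neuronal genes had the highest share of calls among the lists that were not defined by position, with 14 higher and 9 lower of 145 regions (15.9%). Much of it came from a single gene, DIP-lambda, an immunoglobulin-domain surface protein whose gene is the nearest one for the start of 2R. The called regions assigned to it lie in pericentromeric 2R, up to 324588 bp from the gene. Those inside the gene were all lower (-0.86 to -0.41). Those outside of it, 42786 bp or more away, were all higher (0.32 to 1.30). These regions and the called one in Snap25 are also counted in the list of pericentromeric genes above. Calls inside genes of the arms included Rdl, the GABA-gated chloride channel (2.26 ± 0.25 and 1.93 ± 0.25), the potassium channel gene Shaker (Sh, -0.99 ± 0.21), the sodium channel gene para (0.40), Neto, an auxiliary subunit of glutamate receptors (0.41 and 0.35), and Rbp9, a neuronal RNA-binding protein (-0.45 and -0.52). The list had a median of 0.02, against 0.00 over all regions.

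**Figure D5:**
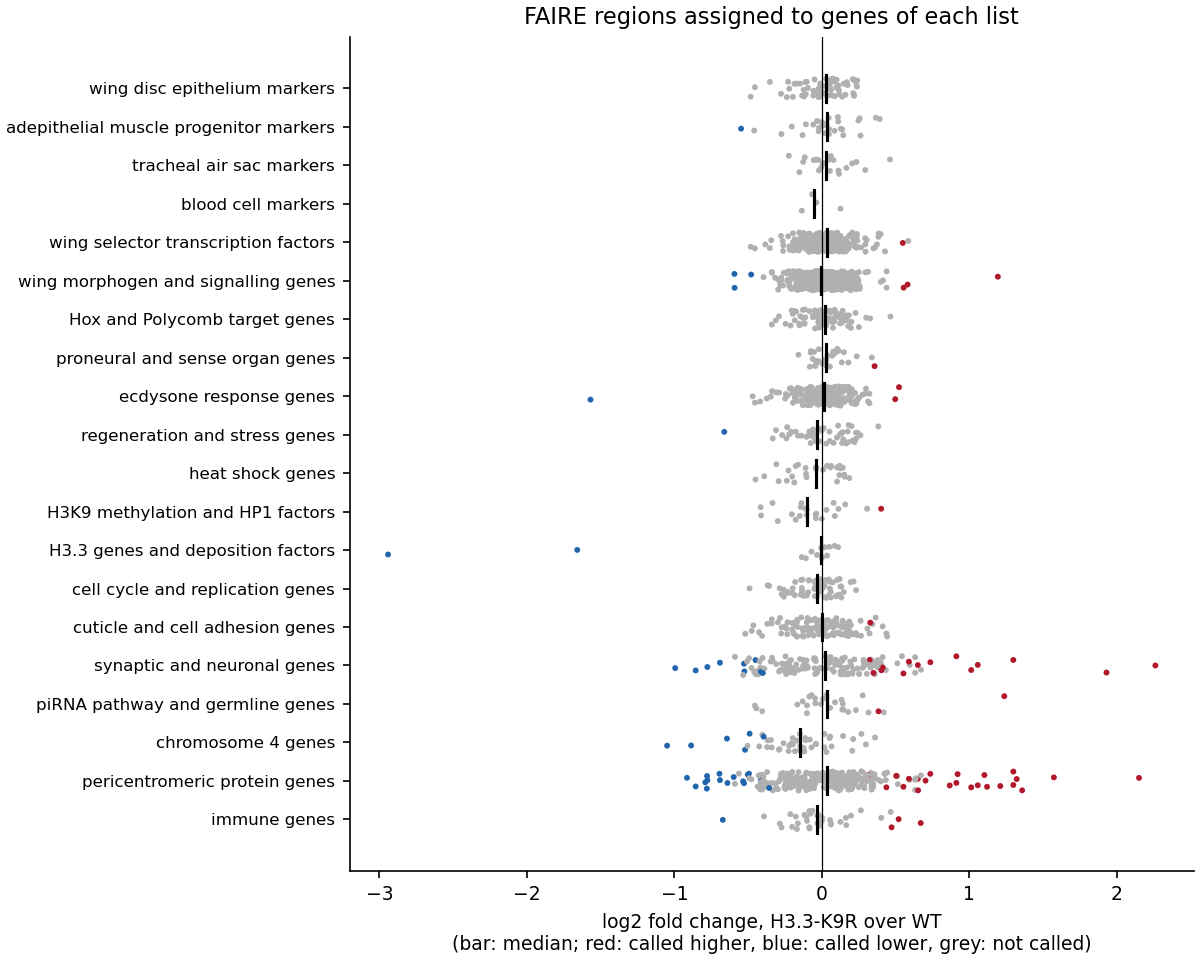
Each point is a FAIRE region assigned to a gene of the list named on the left, plotted by its log2 fold change in H3.3-K9R over WT (x), in red where called higher, blue where called lower and grey where not called. Black bars are medians, which lie between -0.15 (chromosome 4 genes) and 0.04, and calls gather in the neuronal, pericentromeric and chromosome 4 lists. The neuronal and pericentromeric lists share the regions of DIP-lambda and Snap25.

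Called regions lay outside of genes more often than other regions. On the arms, 78.3% of all regions overlapped the span of a gene, against 41.2% of the 558 higher and 66.9% of the 341 lower regions. Part of this came with the block on the X. With the X taken up to 21 Mb the shares were 79.7% of all regions, 63.8% of 301 higher and 69.7% of 323 lower regions. These shares were not tested.

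The double mutant also differed from H3.3A null discs, which lack the same gene and keep an unchanged H3.3B. Of 19733 regions, 1282 were called in the authors' deposited table of that comparison (6.50%). The places on chromosome 4 and the X end given next were chosen after the values of the double mutant over WT were seen. The direct comparison shares the double mutant libraries, so its values there partly restate that choice. The outer part of chromosome 4 was among these places. Its 28 regions had a median of -0.96 over WT in the double mutant, 0.20 in H3.3A null and -0.05 in H3.3B-K9R. Not all of the 28 differed, as the region at 1288814 to 1288952 had -2.41 in the double mutant and -2.67 in H3.3A null. The region at 4 1292931 to 1293988 had -1.79 ± 0.11 over WT and -2.06 ± 0.10 over H3.3A null (adjusted p = 8.5e-83, authors' deposited table, DESeq2 Wald test). At the end of the X, the region at 86448 to 87778 had -1.76 ± 0.11 over WT and -2.13 ± 0.11 over H3.3A null (adjusted p = 2.5e-87).

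The run at CG32547, Hayan and psh was defined by calls of the double mutant over WT, so its values partly restate that choice. Its 14 regions had a median of 0.88 over WT and 0.85 over H3.3A null. H3.3B-K9R had 0.79 over WT there and H3.3A null had -0.04. In the pericentromeric X, the signal of H3.3A null was low (median -0.55 over WT) and that of the double mutant was not (0.01), and the direct comparison called 124 of 187 regions with a median of 0.58.

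RNA of the matching H3.3 genotype gives a second readout from other libraries, in another stage and tissue. It came from whole larvae of the first instar with the same H3.3A and H3.3B alleles, in which the canonical histone genes are deleted and replaced by a wild-type array, over larvae with that array alone. In the authors' deposited table of that comparison 329 of 7634 loci were called (4.31%). Of arm loci that overlapped a region called higher in wing discs, 14 of 144 had higher and 1 had lower RNA (10.4%). Of loci that overlapped a region called lower, 7 of 177 had higher and 4 lower RNA (6.21%). Of loci with regions and none called, 40 of 4647 had higher and 52 lower RNA (1.98%). Loci can span several genes, long loci overlap more regions, and the part of locus length in these shares was not tested.

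RNA and FAIRE values at single genes went together at some and not at others. At mthl8 both were higher, with an RNA log2 fold change of 1.88 ± 0.30 and a FAIRE log2 fold change of 1.75 ± 0.26. Hayan had higher RNA (0.46 ± 0.14, adjusted p = 0.0331, authors' deposited table, DESeq2), and psh had 0.72 ± 0.31 and was not called. Neto (RNA 1.20 ± 0.11) and wde (RNA 0.56 ± 0.14) were higher in both. CG44774 had RNA of 2.05 ± 0.15 and a FAIRE region at -1.20 ± 0.19. At nAChRalpha3 the RNA log2 fold change was 0.05 ± 0.17 (adjusted p = 0.978) beside the FAIRE value of 5.89, at Cyp6a17 it was 0.20 ± 0.26, and at Eip75B 0.10 ± 0.10. The RNA locus at flamenco, 21752533 to 21759063, covers only a part of the gene and overlaps none of the flamenco FAIRE regions named above. It had lower RNA in larvae, at -0.59 ± 0.16 (adjusted p = 0.00936). The FAIRE regions at 21753713 to 21753817 (0.53 ± 0.23) and 21757500 to 21757705 (0.29 ± 0.20) lie in it and were not called. The RNA locus at His3.3A (5055058 to 5058248) extends beyond the gene, which ends at 5056149, so its value is not that of His3.3A alone. This locus had -0.55 ± 0.21 (adjusted p = 0.132), and His3.3B had 0.27 ± 0.09 (adjusted p = 0.0432).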

How the data were processed

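FAIRE libraries of wing discs (3 per genotype, 4 genotypes) were processed by the authors on build dm6. The submitters' processing notes name Bowtie2 2.3.2, SAMtools 1.5, bedtools 2.2.25.0, TopHat2 2.1.1, Cufflinks 2.1.1, MACS2 and DESeq2, with no role. Per the file headers, each deposited table holds a mean normalized count over all libraries (a signal, not a raw count), a log2 fold change with its standard error, the Wald statistic (a score) and a p-value with its adjusted p-value. The deposited table gave no single library, so depth per library is unknown and no model was fitted. Adjusted p-values recomputed by Benjamini-Hochberg with Python 3.11.15 and pandas 2.3.3 differed from the deposited ones by at most 2.7e-07. No standard error exceeded 0.267, also at low counts. The sources used here do not say whether fold changes were shrunken. Regions without a p-value (5) were left out of counts of calls.

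Positions are 1-based. A region was assigned to the RefSeq Release 6 gene it overlaps or else to the nearest one, at any distance. The gene table holds spans and no exons. Pericentromeres were the parts proximal to 22 Mb on 2L, 23 Mb on 3L and the X, 5.4 Mb on 2R and 4.6 Mb on 3R. Regions named were the 12 highest and 12 lowest called with a mean count of at least 20, the 6 smallest p per direction, those at the targeted genes, up to 4 calls per gene list (20 lists, 388 genes) and the 5 longest runs. Some genes in the text are from outside this rule: those of the shorter runs and chromosome ends, further list members, and genes with RNA values, all chosen after their values were seen. The members and lists were chosen with earlier results of these data known. Counting and adjustment were tested on simulated data.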

Additional observations from a re-analysis of the deposited data

How the results depend on the processing

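No paired analysis was possible because the deposited tables hold no values of single libraries, and for the same reason no replicate could be left out. Of 53 alternative values, 31 kept within the margin of the reported ones, 22 moved and 0 reversed direction. Relative to the value, the margin was wider for counts of calls than for shares. Kept within it were totals of 1214 (adjusted p under 0.01), 1869 (under 0.1), 1254 (absolute log2 fold change of at least 0.5) and 1178 (mean count of at least 50), against 1562. With the arms alone, the X to 21 Mb and p-values adjusted over these regions, an alternative chosen after the data were seen, 516 regions were called (257 higher, 259 lower) and 5.54% of X arm regions. With the deposited adjustment the same regions held 301 higher and 323 lower calls, so the difference from 1562 comes from both the regions left out and the new adjustment. Calls in gene lists fell from 77 to 41 when a region had to overlap the gene. Requiring an adjusted p under 0.01, under 0.1, an absolute log2 fold change of at least 0.5 or a mean count of at least 50 moved the share called to 3.15%, 5.61%, 3.49% and 3.44% on 2L, to 9.32%, 16.2%, 10.1% and 15.5% in pericentromeres, and to 25.04%, 36.4%, 20.6% and 34.8% on scaffolds. On the X arm the share was 11.9% under 0.01, 14.8% under 0.1, 12.8% at an absolute log2 fold change of at least 0.5 and 11.9% at a mean count of at least 50, and 6.32% with the arm ending at 21 Mb. Moving the pericentromere boundary 1 Mb into the arms gave 17.0%. Of the 4 shares, that of 2L was the lowest and that of scaffolds the highest at both adjusted p thresholds and at the mean count of at least 50. Centring the values left the value at His3.3A at -1.66.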

Other observations

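The authors' deposited table gives 5 regions a log2 fold change and no p-value. They lie 241 bp from CG17698 on 3L (-1.32 ± 0.27), in spok on 3R (-0.79 ± 0.23 and -0.64 ± 0.23), on the scaffold Un_DS484938v1 (-0.14 ± 0.20) and in CG42749 on the X (0.03 ± 0.21).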
